A study of Mus musculus with 2 samples.

Results

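Gene-dense windows of the mouse genome were defined as fixed 1 Mb bins of chromosomes 1 to 19 (mm10), counted from the first base, that hold at least 15 transcription start sites (TSSs) of protein-coding genes. The TSS was taken as the 5′ end of the gene record. Of 2470 bins, 440 met this limit and 2030 did not. The 440 bins made up 17.9% of the length and held 11171 of the 20547 protein-coding genes that could be placed in a bin, or 54.4%. The choice rested on gene positions and used no ChIP measurement. The number of TSSs in a gene-dense bin ran from 15 to 65, with a median of 21.

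Monomethylation of lysine 4 of histone H3 (H3K4me1) was profiled with ChIP-seq, the sequencing of DNA pulled down with an antibody to the mark. The cells were E14TG2a.4, embryonic stem (ES) cells from a male mouse of strain 129/Ola, with a stage labelled embryonic and an age of 3.5 day. The labels give 2 biological replicates of this line, which form 1 group with no treatment named. The values used were the authors' peak lists, made per replicate, for the pooled replicates and for the peaks they kept as replicated. The lists hold no read counts, so the sequencing depth is unknown, and no control library was analysed here. A single group allows no test of a condition, and bins are not replicates, so each difference is set against the standard deviation (SD) over the 2 replicates, which describes these libraries only.

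H3K4me1 is laid down mainly by the methyltransferases KMT2C and KMT2D at enhancers, and it also flanks active promoters, where trimethylation of the same lysine takes the centre. Enhancers lie within and between genes, so a stretch that holds many active genes also holds many candidate sites for the mark. Mouse genes are not spread evenly. Broadly used genes with CpG-rich promoters gather in dense stretches, and so do large tandem families such as the olfactory receptors, which are used in single specialised cell types and have few CpG dinucleotides at their promoters.

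Promoters of genes with high coverage and of genes with no covered base are given as examples from such bins. They were picked among genes whose listed RefSeq start matches the 5′ end of the gene record. Dmpk, with higher coverage than Gemin7 in the same bin, is therefore not among them. Nova2 encodes a neuronal RNA-binding protein, and Ceacam12 is a member of the carcinoembryonic antigen family. They lie at opposite ends of one bin of chromosome 7 that holds a placental gene cluster. Gemin7, which encodes a subunit of the SMN complex, lies in the next bin, and Vmn1r91, a vomeronasal receptor gene, in the one after it. Arhgap45 lies in the gene-dense bin with the highest coverage, and Olfr1160, an olfactory receptor gene, in one of the lowest. The sequences are the 250 bases before and 50 bases after the listed start of each gene in RefSeq (GRCm38.p6), 5′ to 3′ on the strand of the gene, with each CG dinucleotide in capitals.
Nova2, chr7:18925638-18925937, plus strand: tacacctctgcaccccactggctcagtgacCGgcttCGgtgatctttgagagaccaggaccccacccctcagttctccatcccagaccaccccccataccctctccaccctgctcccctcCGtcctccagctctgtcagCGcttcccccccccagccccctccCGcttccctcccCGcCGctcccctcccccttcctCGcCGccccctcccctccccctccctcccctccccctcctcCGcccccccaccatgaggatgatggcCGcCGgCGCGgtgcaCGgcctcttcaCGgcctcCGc
Ceacam12, chr7:18065679-18065978, plus strand: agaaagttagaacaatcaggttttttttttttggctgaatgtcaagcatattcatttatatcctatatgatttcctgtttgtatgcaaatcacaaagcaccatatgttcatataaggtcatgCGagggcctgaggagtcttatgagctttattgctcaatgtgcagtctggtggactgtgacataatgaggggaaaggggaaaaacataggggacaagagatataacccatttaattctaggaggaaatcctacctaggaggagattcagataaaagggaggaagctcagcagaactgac
Gemin7, chr7:19573294-19573593, minus strand: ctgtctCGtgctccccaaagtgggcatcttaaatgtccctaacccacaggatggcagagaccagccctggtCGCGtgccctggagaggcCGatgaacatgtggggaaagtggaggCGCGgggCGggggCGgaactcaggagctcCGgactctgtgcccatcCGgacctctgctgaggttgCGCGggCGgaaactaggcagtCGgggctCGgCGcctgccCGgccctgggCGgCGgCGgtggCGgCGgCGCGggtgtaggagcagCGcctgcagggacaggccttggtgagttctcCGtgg
Vmn1r91, chr7:20100908-20101207, plus strand: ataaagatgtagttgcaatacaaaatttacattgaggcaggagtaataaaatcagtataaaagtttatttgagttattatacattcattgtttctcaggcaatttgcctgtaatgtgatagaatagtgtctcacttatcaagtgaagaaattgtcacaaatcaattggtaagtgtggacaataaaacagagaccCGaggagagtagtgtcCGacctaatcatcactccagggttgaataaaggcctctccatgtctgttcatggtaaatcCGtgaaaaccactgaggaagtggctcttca
Arhgap45, chr10:80016422-80016721, plus strand: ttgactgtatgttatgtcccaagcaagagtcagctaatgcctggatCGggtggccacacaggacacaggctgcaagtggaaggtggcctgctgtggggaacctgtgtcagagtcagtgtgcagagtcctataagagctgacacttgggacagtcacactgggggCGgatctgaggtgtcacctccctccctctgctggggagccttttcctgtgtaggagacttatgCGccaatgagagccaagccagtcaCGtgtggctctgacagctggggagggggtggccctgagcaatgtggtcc
Olfr1160, chr2:88006727-88007026, minus strand: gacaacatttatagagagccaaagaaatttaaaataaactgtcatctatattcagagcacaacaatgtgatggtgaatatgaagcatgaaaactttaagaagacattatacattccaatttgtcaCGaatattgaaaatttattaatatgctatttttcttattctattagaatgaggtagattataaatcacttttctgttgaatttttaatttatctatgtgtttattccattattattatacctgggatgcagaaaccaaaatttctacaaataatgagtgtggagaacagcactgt

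The 300 bases of Gemin7 held 26 CG dinucleotides, those of Nova2 held 17 and those of Arhgap45 held 4. Vmn1r91 held 3, Ceacam12 held 1 and Olfr1160 held 1. The motif CG reads the same on both strands, and of 31396 RefSeq promoters of this length on chromosomes 1 to 19, 43.95% held at least 10 and 77.0% held at least 3. Within 5 kb of the TSS, peaks covered 83.7% of bases at Gemin7 in replicate 1 and 79.7% in replicate 2, 68.4% and 60.1% at Nova2, and 95.1% and 91.7% at Arhgap45. The windows of Vmn1r91, Ceacam12 and Olfr1160 had no covered base in either replicate. Coverage and CG count thus did not run in step for Arhgap45, whose promoter had few CG dinucleotides beside nearly full coverage.

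Peaks covered more of the gene-dense bins than of the other bins. The median coverage, the percent of the bases of a bin that lie in peaks, was 19.1% in replicate 1 and 18.96% in replicate 2 over the gene-dense bins (19.03 ± 0.10, SD, n = 2), against 3.32% and 3.50% over the other bins (3.41 ± 0.13). The difference of medians was 15.8 percentage points in replicate 1 and 15.5 in replicate 2, or 15.6 ± 0.23 (SD, n = 2), many times the SD between replicates. In the authors' replicated list the medians were 20.9% over gene-dense and 3.87% over other bins. The gene-dense bins held 41.6% of all covered bases in replicate 1 and 40.3% in replicate 2. Both groups spanned a wide range that overlapped, from 0 to 62.0% in gene-dense bins and from 0 to 58.2% in the other bins in replicate 1.

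A bin was called high where its coverage was at least 1.5 times the median of all bins in each replicate, which set the limits at 6.98% in replicate 1 and 7.30% in replicate 2. Among gene-dense bins 358 of 440 were high, or 81.4%, where 40.3% of all bins were. Among the other bins 637 of 2030 were high, or 31.4%. A bin was called low at no more than 0.5 times the median in each replicate. Low bins numbered 41 of 440 gene-dense bins, or 9.32%, where 36.0% of all bins were low, and 848 of the 2030 other bins, or 41.8%. Gene-dense bins therefore included both a large majority above and a minority below the body of the genome.

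Most of the covered length of gene-dense bins lay away from promoters. Promoters were taken as bases within 2.5 kb of the 5′ end of a protein-coding gene record with a known strand. Other starts of the same genes were not included and count as away from promoters. Promoters so defined made up 10.0% of the median gene-dense bin and 1.64% of the median other bin. They held 20.2% of the covered bases of a gene-dense bin in replicate 1 and 18.0% in replicate 2, against 10.7% and 8.68% in the other bins. Away from promoters, the median coverage was 16.5% and 16.7% in gene-dense bins, against 2.86% and 3.10% in the other bins, a difference of 13.6 ± 0.04 points (SD, n = 2), and 21.0 points with the mm9 lists. The ratio of the medians was 5.76 in replicate 1 and 5.38 in replicate 2 away from promoters, and 1.53 and 1.65 within them. Gene bodies took up 57.8% of the median gene-dense bin and 36.5% of the median other bin.

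The gene-dense bins differed in the number of peaks more than in their width or signal. The median bin held 265 peaks in replicate 1 and 269.5 in replicate 2, against 64 and 69 in the other bins. The median of the bins' median peak width was 427.5 bp and 419 bp in gene-dense bins, against 366 bp and 353.5 bp in the other bins. The authors' own signal value per peak, taken as the median of each bin, was 3.97 and 3.85 in gene-dense bins against 3.62 and 3.55 in the other bins, as a description within each list.

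Coverage followed TSS count in steps among bins in which none of the family classes used here, set by gene symbols, took 33.3% of the TSSs. The mean over replicates of the median coverage was 0.251% in bins with no TSS, 3.97% with 3 to 4, 7.49% with 5 to 9, 12.4% with 10 to 13 and 14.4% with 14. Past the limit it was 13.7% with 15 TSSs, 18.9% with 16 to 19, 22.1% with 20 to 24, 21.9% with 25 to 29, 28.0% with 30 to 39 and 36.0 ± 0.60% (SD, n = 2) with 40 or more, where the lowest of 35 bins was at 19.6%. The step from 14 to 15 TSSs went down and those from 20 to 29 were level, while the others went up by more than the SD between replicates. Right at the limit, with families included, the 31 bins with 15 TSSs had medians of 11.5% and 12.6% (bins from 0 to 30.4%), and the 51 bins with 14 TSSs had medians of 13.5% and 13.2% (bins from 0 to 57.5%). The limit of 15 thus lay on a slope and marked no break in coverage.

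Across bins, the rank correlation of TSS count with coverage was 0.712 in replicate 1 and 0.703 in replicate 2 over all 2470 bins, 0.225 and 0.204 over the 440 gene-dense bins, and 0.454 and 0.427 over the 344 gene-dense bins outside the family classes (Spearman). These are descriptions, since bins of 1 library share its depth and neighbouring bins share domains. The coverage of the gene-dense bins had a rank correlation of 0.996 between replicates.

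**Figure D1:**
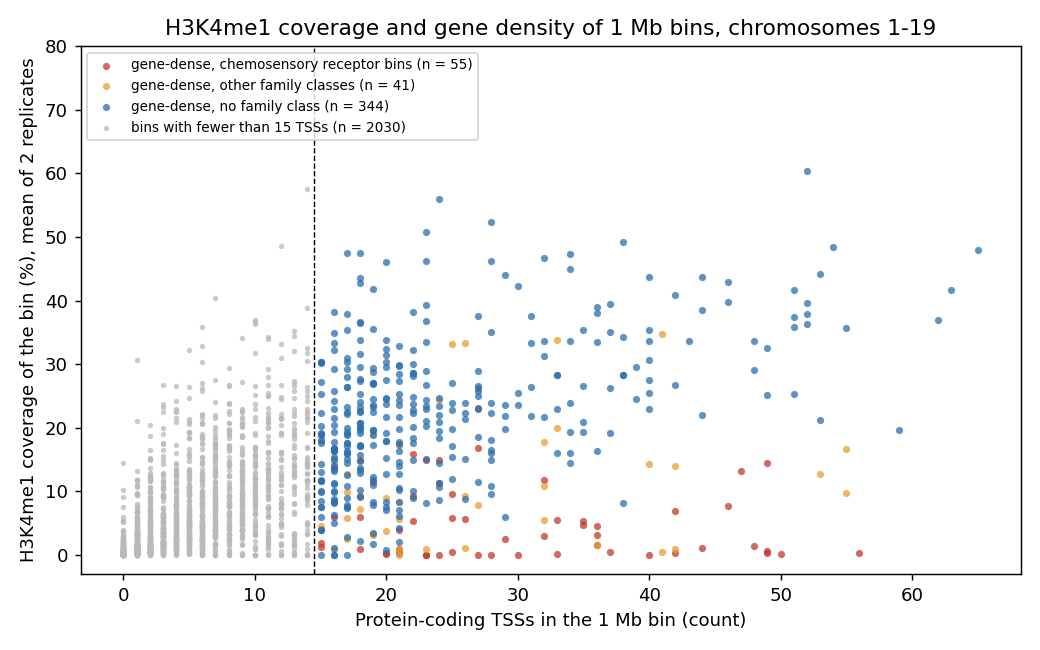
H3K4me1 coverage of each 1 Mb bin (percent of bases in peaks, mean of 2 replicates) against its count of protein-coding TSSs. Each point is a bin, and the dashed line marks the limit of 15 TSSs. Bins of no family class form a rising band that reaches 60.4%, while the 55 chemosensory receptor bins stay at or under 23.1% up to 56 TSSs.

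The low gene-dense bins were mostly those led by a tandem gene family. A bin was given to a family class when the class held at least 33.3% of its TSSs. This placed 96 of the 440 bins in 10 classes and left 344 in none. Classes rest on gene symbols, so bins of predicted genes, such as chr14:4000001-5000000, count among the 344. The 344 bins had a median of 22.1% in replicate 1 and 22.3% in replicate 2 (22.2 ± 0.12, SD, n = 2), with 319 high and 8 low. All classes other than the Hox genes had a lower median than these bins, and the 96 class bins held 39 of the 358 high bins and 33 of the 41 low ones. High bins were 40.6% and low bins 34.4% of the 96, close to the 40.3% and 36.0% of all bins.

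Chemosensory receptor genes filled the largest class. These receptors detect odorants, pheromones or tastants and are used in sensory neurons and taste cells. Their 55 bins had a median of 3.23% in replicate 1 and 3.18% in replicate 2, a difference of -19.01 ± 0.15 points (SD, n = 2) from bins of no family class. With the mm9 lists, which are broad intervals, the difference was -29.9 points. Of the 55, 16 were high (29.1%, where 40.3% of all bins were), 25 were low (45.5%, where 36.0% of all bins were) and 19 were under 1% in both replicates. The bins held up to 56 TSSs, so they were as dense in genes as the most covered bins.

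Within this class, coverage was lower the larger the share of receptors. In the 13 bins with at least 90% receptor TSSs the medians were 0.284% and 0.272%, and no bin passed 1.55%. In 18 bins with 67% to 90% receptors they were 2.04% and 1.92%, and in 24 bins with 33% to 67% they were 10.3% and 10.8%. The number of other genes in those bins had medians of 1, 6 and 12. The 43 bins led by olfactory receptors had medians of 5.32% and 4.63%, the 11 led by vomeronasal receptors 0.868% and 0.996%, and the bin led by taste receptors was at 0.

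Genes inside the receptor bins split by family. Among 1184 receptor genes in the 55 bins, 1103 had no covered base within 5 kb of the TSS in either replicate, or 93.2%. The share was 22.2% over all genes with a TSS in gene-dense bins. Of the 453 other genes in the same bins 91 had none, or 20.1%, and their median window was 21.0% covered in replicate 1 and 20.2% in replicate 2. In the most covered of these bins, chr4:118000001-119000000 at 23.8% and 22.5%, the highest windows belonged to Ptprf, a receptor tyrosine phosphatase gene (64.2% and 59.03%), Tmem125 (59.3% and 57.8%), 2610528J11Rik (50.5% and 50.6%) and St3gal3, a sialyltransferase gene (51.7% and 48.6%). Olfr62 and Olfr1335 in that bin had no covered base.

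Of all 1103 olfactory receptor genes on chromosomes 1 to 19, 1039 lay in gene-dense bins, or 94.2%, and of 351 vomeronasal receptor genes 231 did, or 65.8%. Repeated sequence is one value that moved with the family. The 32-mers sampled within 10 kb of the TSS of the same genes on mm9 occurred once in the genome for a median of 80.0% per receptor gene and 95.0% per gene of bins of no family class. Among the 318 receptor genes of these bins with at least 90% unique 32-mers, 284 had no covered base, or 89.3%, against 20 of 252 neighbours, or 7.94%, and 194 of 5226 genes in bins of no family class, or 3.71%. The part of repeated sequence in the coverage of receptor genes was not tested further.

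**Figure D2:**
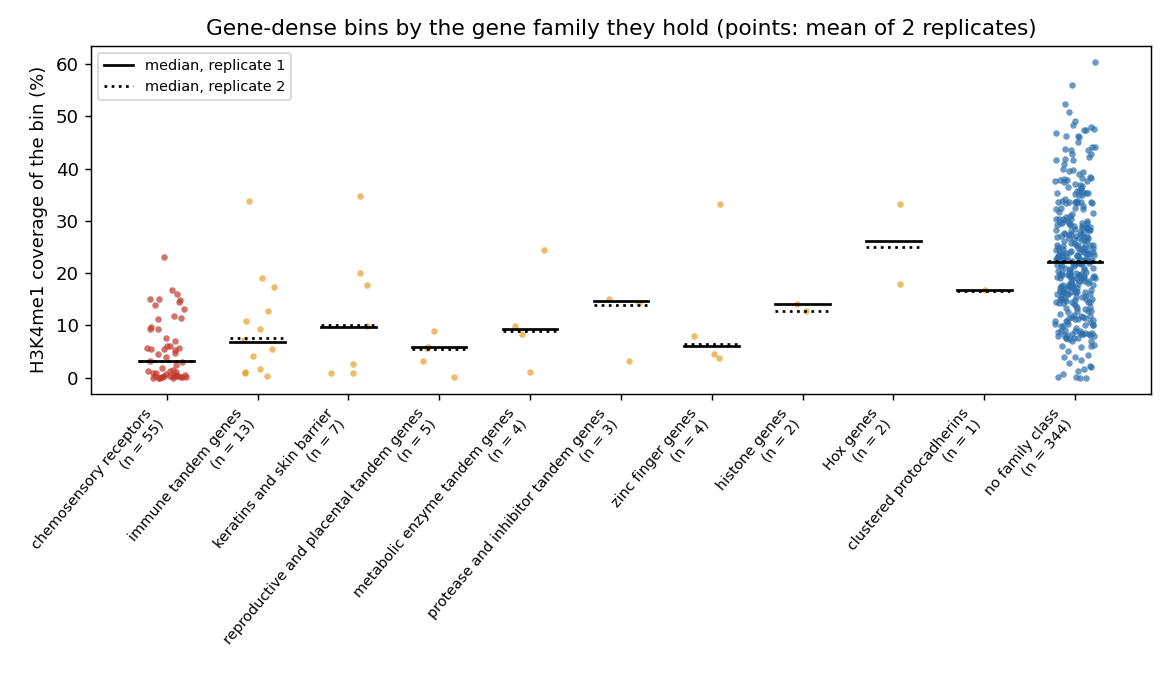
H3K4me1 coverage (percent of bases in peaks) of the 440 gene-dense bins by family class. Points are bins (mean of 2 replicates), spread sideways for visibility, and lines are the class medians in replicate 1 (solid) and replicate 2 (dotted). Only the Hox bins have medians (26.1% and 25.1%) above those of the bins of no family class.

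Immune gene clusters made up 13 bins, with medians of 6.75% and 7.68%, a difference of -15.004 ± 0.54 points (SD, n = 2) from bins of no family class. Of these, 6 were high (46.2%) and 4 low (30.8%), shares near the 40.3% and 36.0% of all bins. The lowest, chr8:21000001-22000000, holds 38 immune family TSSs among 41, mainly of defensins, antimicrobial peptides of gut and skin. It was at 0.428% and 0.410%. No covered base was found at 36 of its 39 genes with a known TSS, Defa21 and Defa23 among them, against 22.2% of all genes of gene-dense bins. The highest, chr2:152000001-153000000, stood at 34.7% and 33.04%. There the windows of Id1, an inhibitor of helix-loop-helix factors and a target of BMP signalling in ES cells (81.8% and 79.3%), Tcf15 (79.9% and 75.02%) and Trib3 (75.1% and 79.0%) were covered, while the defensin genes Defb20 and Defb22 in the same bin had no covered base.

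Genes of the major histocompatibility complex (MHC) lay in 4 gene-dense bins, and 2 adjoining bins of the region that differed in coverage are given here. Chr17:35000001-36000000, with 62 TSSs of which 13 were immune family genes, was at 38.3% and 35.6%, and 1 of its 62 genes had no covered base. Its highest windows belonged to Vwa7 (92.0% and 87.2%), Ly6g6c, a member of the Ly6 family (85.3% and 86.7%), Mpig6b (84.5% and 85.5%) and Ddr1, a collagen receptor kinase gene (80.8% and 85.3%). The windows of Ly6g6c and Mpig6b share most of their bases. Chr17:36000001-37000000, where immune family genes held 15 of 32 TSSs, was at 11.1% and 10.8%. Over all 35 MHC genes, every one in a gene-dense bin, the median window was 9.02% and 5.72%. No covered base was found at 12 of the 35, against 22.2% of all genes of gene-dense bins.

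Keratin and skin barrier genes, which build the cytoskeleton and outer envelope of epithelia, led 7 bins with medians of 9.64% and 10.0%. The difference from bins of no family class was -12.4 ± 0.15 points (SD, n = 2). The cornified envelope cluster at chr3:92000001-93000000 was at 0.924% and 0.867%. There 35 of 42 genes had no covered base, against 22.2% of all genes of gene-dense bins. Loricrin (Lor), a main protein of that envelope, had 15.1% and 8.78%. The keratin bin chr11:100000001-101000000 was at 35.3% and 34.2%, and here 2 keratins were themselves among the highest windows, Krt42 (86.2% and 85.3%) and Krt17 (90.7% and 74.8%), beside Jup, which encodes plakoglobin (87.1% and 86.6%). Krt33a and Krt33b, hair keratin genes of the same bin, had no covered base. The family was therefore not uniform.

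Reproductive and placental clusters led 5 bins, with medians of 5.79% and 5.44%, a difference of -16.6 ± 0.36 points (SD, n = 2) from bins of no family class. The prolactin family bin chr13:27000001-28000000, whose genes encode pituitary and placental hormones, was at 0.0226% and 0.114%, and none of its 21 genes, Prl and Prl3d1 included, had a covered base in its window. In chr4:143000001-144000000, at 8.43% and 9.52%, Pdpn, which encodes the membrane protein podoplanin, had 92.3% and 82.2%. There 13 of 20 genes, Oog4 among them, had no covered base, against 22.2% of all genes of gene-dense bins.

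Metabolic enzyme clusters led 4 bins (medians 9.33% and 8.96%). The lowest, chr5:87000001-88000000 with glucuronosyltransferase and casein genes, was at 1.03% and 1.01%, where Ugt2b35 and Ugt2b36 had no covered base and the casein gene Csn1s2a had 12.7% and 8.34%. The highest, chr17:32000001-33000000, was at 24.2% and 24.7%, with Rrp1b at 74.7% and 67.1% and the cytochrome P450 gene Cyp4f37 at 0. The 3 protease and inhibitor bins had medians of 14.7% and 13.8%. In the serpin bin chr12:104000001-105000000, at 14.7% and 15.5%, the homeobox gene Gsc (goosecoid), active in early mesendoderm, had 61.2% and 58.5%, Serpina3i had 37.6% and 41.0%, and Serpina5 and Serpina9 had no covered base.

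**Figure D3:**
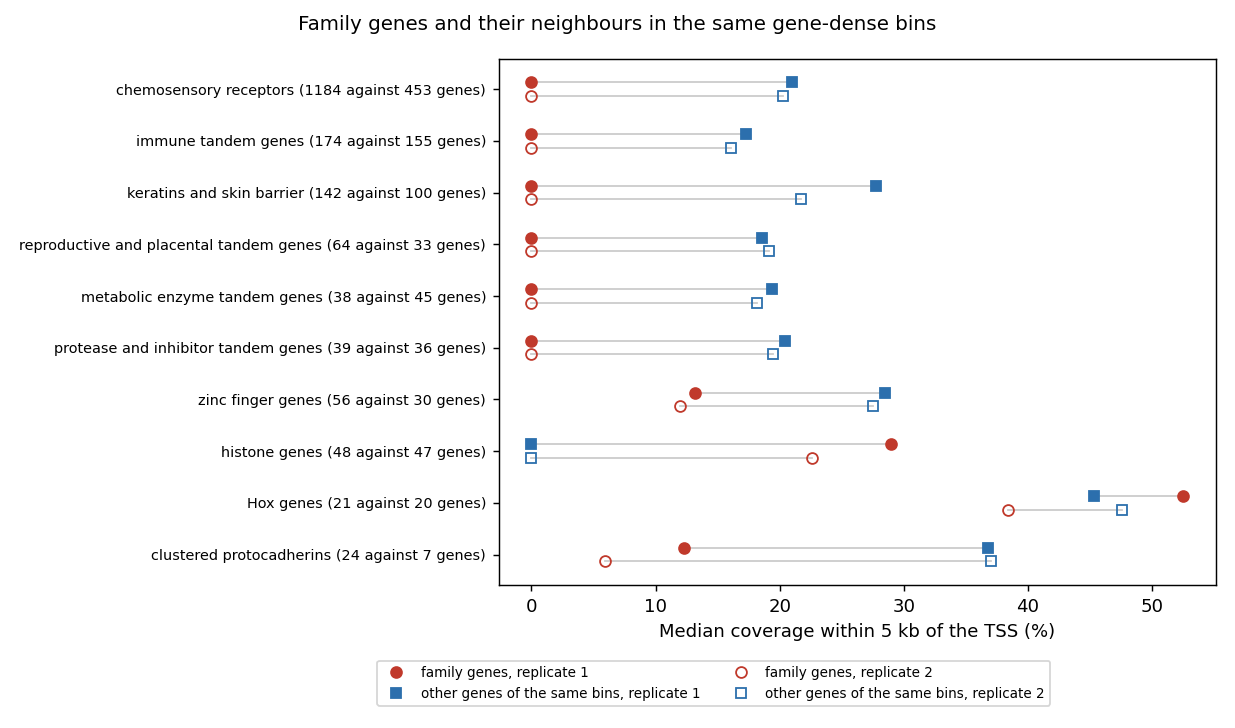
Median coverage within 5 kb of the TSS (percent of bases) of family genes (circles) and of the other genes in the same gene-dense bins (squares), by family class, in replicate 1 (filled) and replicate 2 (open). In the first 6 classes the family median is 0 in both replicates, while histone genes stand above their neighbours.

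Zinc finger, histone, Hox and protocadherin genes stood apart from the sensory and immune clusters, as their own windows were rarely empty. The zinc finger genes (symbols such as Zfp and Zscan), many of which encode repressors of transposable elements, led 4 bins with medians of 6.06% and 6.39%. Of 56 zinc finger genes in them 5 had no covered base, against 22.2% of all genes of gene-dense bins. The median window of the 56 was 13.2% and 11.9%, against 28.4% and 27.5% for 30 neighbours. Over all 281 zinc finger genes with a TSS in gene-dense bins the median window was 23.1% and 21.2%. The highest bin, chr7:29000001-30000000, was at 33.3% and 33.2% with Zfp383 at 78.8% and 72.7%. The lowest, chr17:21000001-22000000, was at 3.98% and 3.50%, where Zfp52 had 48.9% and 44.8% and the vomeronasal receptor genes Vmn1r234 and Vmn1r235 had no covered base.

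The replication-dependent histone genes, which supply core histones in S phase, led 2 bins of chromosome 13 at chr13:21000001-22000000 (14.7% and 13.5%) and chr13:23000001-24000000 (13.3% and 12.1%). Family genes had a median window of 28.96% and 22.6%, against 0 for the 47 neighbours, which include receptor genes. Of these neighbours 25 had no covered base, against 22.2% of all genes of gene-dense bins. Neighbours without receptor genes were not compared. H2bc22 (63.8% and 68.1%) and H1f5 (49.97% and 48.5%) were among the covered ones. Olfr1370, Olfr263, Vmn1r213 and Vmn1r214 in those bins had no covered base. Here the order of family and neighbours was the reverse of that in the receptor bins.

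Hox clusters, which pattern the body axis and are held by Polycomb in ES cells, led 2 bins. The Hoxb bin, chr11:96000001-97000000, was at 34.0% and 32.5%, and the Hoxa bin, chr6:52000001-53000000, at 18.2% and 17.6%. None of the 21 Hox genes in them was without a covered base. The highest was Hoxa11 at 81.2% and 72.9%, and the lowest mean was that of Hoxa4 at 19.5% and 23.6%. The median window of the Hox genes was 52.5% in replicate 1 and 38.3% in replicate 2, against 45.3% and 47.6% for the 20 neighbours. The sign of that difference thus changed between the replicates.

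The clustered protocadherin bin, chr18:37000001-38000000, had 48 protocadherin TSSs among 55 and stood at 16.8% and 16.5%. These genes encode neuronal cell surface proteins chosen by promoter. Of the 24 with a known TSS none was empty in both replicates, but their median was 12.3% and 5.93%, against 36.8% and 37.0% for 7 neighbours. Pcdhgc5 differed from the rest at 99.5% and 98.1%, whereas Pcdhb5 was at 2.40% in replicate 1 and 0 in replicate 2. The other protocadherin genes of the bin had no strand in the sources used here, so they were placed by their extent and have no window.

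The most covered gene-dense bins held no family class. They were chosen by coverage, which leaves little room for empty genes, and they were almost without them. The highest, chr10:80000001-81000000, was at 62.0% in replicate 1 and 58.8% in replicate 2 with 52 TSSs, none of them without a covered base within 5 kb. Arhgap45 and Amh, which encodes anti-Müllerian hormone (95.1% and 89.8%), had the highest windows. Gadd45b, a stress-response gene (91.3% and 83.3%), and Cirbp, a cold-induced RNA-binding protein gene (86.5% and 83.2%), followed. Promoters took 24.7% of its covered bases in replicate 1, so most of the coverage lay away from them.

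The second, chr4:133000001-134000000, was at 55.2% and 56.7% with 24 TSSs. Pigv, an enzyme of GPI anchor synthesis (85.8% and 81.7%), Sfn, which encodes 14-3-3 sigma (84.7% and 82.7%), and the actin regulator Wasf2 (74.9% and 70.3%) were among its highest windows. The third, chr11:97000001-98000000, was at 52.6% and 52.0%, with Arhgap23 (89.9% and 82.0%), the iron-sulfur protein gene Cisd3 (87.1% and 83.5%) and the nuclear import receptor gene Kpnb1 (74.0% and 70.5%). In these bins replicate 2 was the higher in one and replicate 1 in the other.

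Next were chr17:28000001-29000000 at 49.2% and 52.2%, with the nuclear receptor gene Ppard (87.4% and 82.4%), and chr9:21000001-22000000 at 48.9% and 49.4%, with Angptl8 (90.8% and 92.8%) and the adhesion genes Icam5 (93.1% and 86.9%) and Icam4 (92.0% and 86.0%). The bin with the most TSSs of all, chr7:45000001-46000000 with 65, was at 49.7% and 46.3%. Its highest windows were those of Lhb, which encodes the beta chain of luteinizing hormone (94.5% and 90.7%), and the glycogen synthase gene Gys1 (88.2% and 83.0%). Genes made for other tissues, such as Lhb and Amh, thus had nearly full windows inside covered bins. In bins this dense a window can take in neighbouring genes, so its coverage cannot be assigned to the named gene alone. The window of Lhb reaches into the gene Ruvbl2, and those of Icam4 and Icam5 overlap.

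Of the remaining 4 of the 10 highest bins, chr17:29000001-30000000 was at 48.9% and 46.1%, with the kinase genes Stk38 (71.2% and 64.9%) and Pim1 (60.6% and 58.4%). Chr5:113000001-114000000 was at 47.7% and 47.2% and was the only one of the 10 with an empty gene, the lens crystallin gene Crybb2. Chr11:116000001-117000000 was at 47.7% and 46.9%, with Unc13d at 74.8% and 81.3%. The last of the 10, chr7:19000001-20000000, is described with its neighbours at the step in coverage on chromosome 7. Chr11:69000001-70000000, which had 63 TSSs, was at 43.2% and 39.997% with no empty gene, and the ephrin gene Efnb3 (97.2% and 91.1%) and Sox15 (89.5% and 89.98%) were among its highest.

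The 10 lowest gene-dense bins had coverage between 0 and 0.114% in both replicates, and none of their genes had a covered base within 5 kb. Being chosen by low coverage, they leave little room for covered windows. The bins chr14:3000001-4000000, chr14:4000001-5000000 and chr14:43000001-44000000 hold mainly predicted genes such as Gm2888, Gm5796 and Gm10376. The bins chr7:21000001-22000000, chr7:22000001-23000000 and chr7:23000001-24000000 hold Vmn1r genes, chr6:132000001-133000000 taste receptor and proline-rich protein genes such as Prb1, and chr2:88000001-89000000 and chr2:111000001-112000000 olfactory receptors such as Olfr1160 and Olfr1275. The prolactin bin completed the set.

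These bins differed in how unique their sequence is. The mean share of 32-mers around their TSSs that occur once in mm9 was 3.75%, 5.71% and 16.8% in the chromosome 14 bins and 45.7% in chr7:23000001-24000000. It was 75.1% and 74.8% in the olfactory bins of chromosome 2, 73.9% in the taste receptor bin and 78.8% in the prolactin bin. For the other 2 bins of chromosome 7, fewer than 80% of genes were matched to mm9, so that check is void. The part of repeated sequence in the values of these bins was not tested. Among bins with at least 80% of genes matched and at least 85% unique 32-mers, 9 receptor bins had medians of 7.57% and 7.72%, against 24.3% and 23.99% in 233 bins of no family class.

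**Figure D4:**
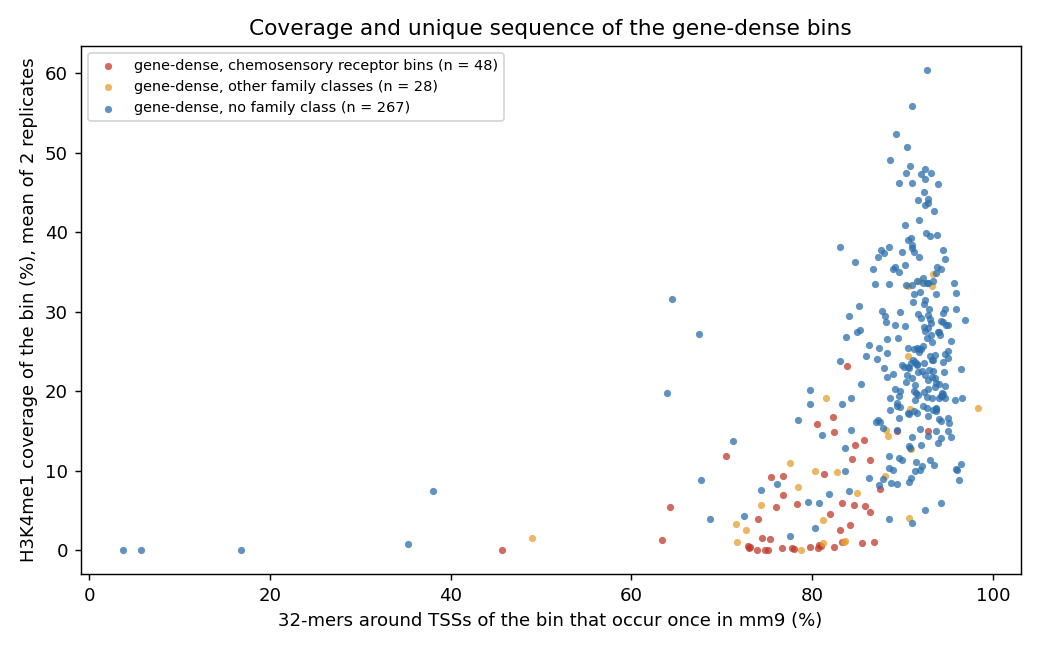
H3K4me1 coverage of gene-dense bins (percent of bases in peaks, mean of 2 replicates) against the mean percent of 32-mers around their TSSs that occur once in the mm9 genome. Points are the 343 bins with at least 80% of genes matched. The 3 bins with the fewest unique 32-mers lie at or near 0, and no receptor bin passes 23.1% at any share of unique 32-mers.

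Coverage differed between adjoining gene-dense bins by up to 48.3 points. The 440 bins formed 190 runs of adjoining bins, 90 of them single, and over 250 pairs of adjoining gene-dense bins the median difference was 7.83 points. The largest step, 48.3 points, lay on chromosome 7 between chr7:19000001-20000000 (49.5% and 47.2%, 54 TSSs) and chr7:20000001-21000000 (0.067% and 0.0967%, 27 TSSs, 24 of them receptors). The second, 42.6 points, lay on the other side of the same bin, against chr7:18000001-19000000 (5.79% and 5.64%), where pregnancy-specific glycoprotein and Ceacam genes lead. Genes of the middle bin include Dmpk, the myotonic dystrophy kinase gene (96.3% and 95.9%), the apolipoprotein gene Apoc1 (90.6% and 87.6%) and the NF-kB regulator gene Bcl3 (86.3% and 77.7%).

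In steps of 25 kb, the middle bin had a median of 53.0% in replicate 1 and 47.6% in replicate 2, and none of its 40 steps was at 0. The bin before it had a median of 0 in both replicates, with 26 of 40 steps at 0 in both. The highest of its steps reached 50.04% and 48.98%, in the last part next to the middle bin, where Nova2 lies. The bin after it had 38 of 40 steps at 0 in both, and no step above 1.86% in replicate 1 or 3.05% in replicate 2. TSSs were present across all 3 bins.

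**Figure D5:**
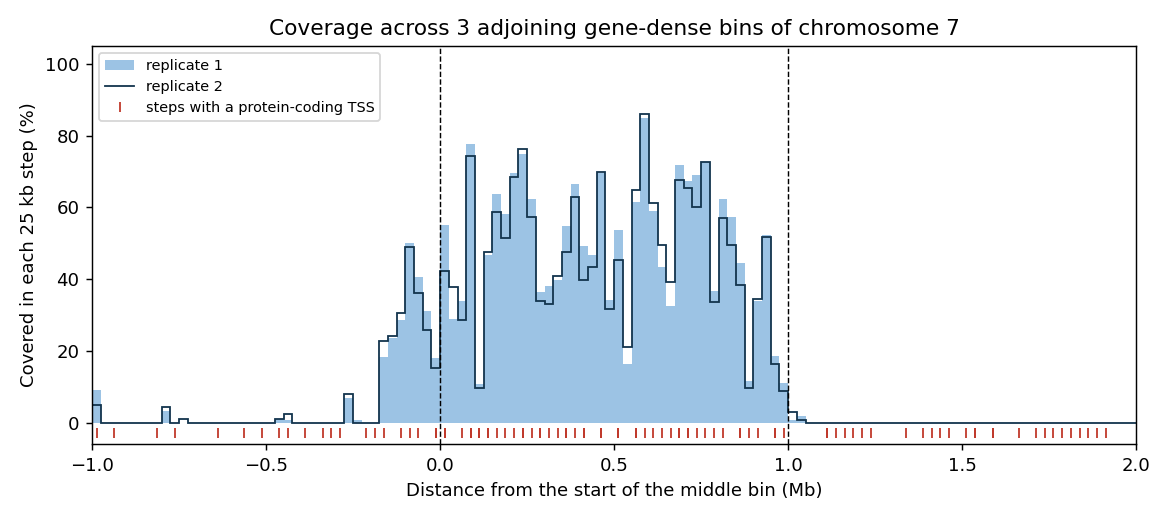
Percent of each 25 kb step covered by H3K4me1 peaks across 3 adjoining gene-dense bins of chromosome 7, against distance from the start of the middle bin, in replicate 1 (filled) and replicate 2 (line). Dashed lines are bin borders and ticks mark steps that hold a protein-coding TSS, 1 tick per step. The middle bin has no step at 0, and the bin to its right has 38 of 40 at 0 in both replicates.

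A like step of 37.2 points separated chr10:128000001-129000000 (37.5% and 37.3%, 51 TSSs) from chr10:129000001-130000000 (0.284% and 0.224%, 50 TSSs, 49 of them receptors). Some steps had no family class on either side. Chr10:79000001-80000000 at 23.5% and 22.3%, next to the highest bin of all, and chr7:46000001-47000000 at 10.8% and 10.4%, next to the bin with the most TSSs, were both of no family class.

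Long runs also differed in coverage. The longest run, 11 bins at chr7:99000001-110000000 with 331 TSSs, averaged 8.45% and 8.35%, and 4 of its bins were of no family class. A run of 10 bins at chr11:94000001-104000000 held the same number of TSSs, 331, and averaged 33.4% and 32.5%, with 7 bins of no family class. A run of 10 bins on chromosome 15, chr15:74000001-84000000, averaged 28.2% and 27.7%. By chromosome, 42 of the 43 gene-dense bins of chromosome 11 and all 17 of chromosome 15 were high and none was low, whereas 34 of 50 on chromosome 7 were high and 9 were low. Of all bins 40.3% were high and 36.0% low, and of all gene-dense bins 81.4% and 9.32%.

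CpG content of promoters moved with these classes. The nearest listed start was used with no limit on distance, here and for the shares per bin given next. It lay within 500 bp of the TSS for 14217 of 16457 matched genes. In RefSeq promoters matched by nearest start, the 1028 matched receptor genes of the receptor bins had a median of 1 CG dinucleotide per 300 bases and none had 10 or more, against a median of 11 and 52.4% with 10 or more among 393 neighbours. Keratin and skin barrier genes had a median of 2 against 5 for neighbours, and histone genes 10 against 3. Zinc finger genes and their neighbours both had 9. Histone genes were above their neighbours, which include receptor genes, in both coverage and CG count. The part of CpG content in these results was not tested.

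Across the 307 gene-dense bins with promoters for at least 80% of their TSSs, coverage was set beside the share of promoters with at least 10 CG dinucleotides. The median coverage was 0.784% over 30 bins with a share under 10%, 5.98% over 37 bins from 10% to 30%, 10.0% over 43 bins from 30% to 50%, 22.4% over 77 bins from 50% to 70% and 24.001% over 120 bins from 70% to 100%. The rank correlation was 0.687, and 0.673 for coverage away from promoters (Spearman, over bins, a description). The other 133 gene-dense bins were left out of it.

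Housekeeping genes, the ribosomal, proteasome, respiratory, polymerase, translation and splicing genes that nearly every cell uses, lay in gene-dense bins for 286 of 475, or 60.2%, against 54.4% of all genes. Only 2 of the 286 had no covered base, against 22.2% of all genes of gene-dense bins. The median window of the 286 was 48.0% in replicate 1 and 44.8% in replicate 2. The median window of all genes of gene-dense bins was 29.7% and 26.9%. RNA polymerase subunit genes had the highest group median, 58.6% and 57.1% over 18 genes, and proteasome genes the lowest, 33.7% and 35.8% over 23. Among bins of no family class, medians were 20.2% and 19.9% in 169 bins with no housekeeping gene, 22.6% and 22.3% in 117 bins with 1, 28.6% and 28.3% in 36 bins with 2 and 33.4% and 32.7% in 22 bins with 3 or more. The median TSS count of those bins also moved, at 20, 20, 28.5 and 36.5.

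With receptor genes counted, genes of gene-dense bins were also more often empty. Of 11070 genes with a TSS in gene-dense bins 22.2% had no covered base within 5 kb, against 16.6% of 9284 genes in the other bins, although the medians of the windows were 29.7% and 26.9% against 19.6% and 17.4%. The share of genes with high windows was not computed. Of the 2455 empty genes in gene-dense bins, 1103 were among the 1184 receptor genes of the receptor bins. Without those 1184 genes the empty share of gene-dense bins would lie below that of the other bins, which keep their own receptor genes. The shares with receptor genes left out of both groups were not computed.

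Of ES cell genes, Pou5f1 and Nanog, which encode core pluripotency factors, lie in gene-dense bins, with windows of 60.2% and 41.8% and of 53.9% and 39.3%. Sox2, Klf4, Esrrb and Zfp42, in the other bins, had a mean of 23.0% to 46.5% over the replicates. Of the fibroblast genes, Dcn and Col3a1 were empty, while Col1a1 (42.9% and 37.2%) and Pdgfrb (69.8% and 62.5%) were covered, and whether fibroblasts contributed was not tested.

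Over whole gene-dense bins the replicates differed little. Replicate 1 was the higher in 256 bins, replicate 2 in 179, and 5 were at 0 in both. The median SD of a bin was 0.433 points and the largest 2.71. In the 44 bins with the highest coverage, replicate 1 was the higher in 31. Within promoters the replicates differed more, with medians over gene-dense bins of 39.1% in replicate 1 and 34.5% in replicate 2 (36.8 ± 3.25, SD, n = 2).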

How the data were processed

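H3K4me1 ChIP-seq peak lists of 2 biological replicates were used as deposited. Which aligner and caller the authors ran is not given in the sources here. Per the file headers, the authors deposited mm10 narrowPeak lists (replicate 1, replicate 2, pooled, replicated), which carry signal, −log10 p and −log10 q per peak. They deposited mm9 broadPeak lists with signal, p-value and q-value columns. The read-me lists name 1 more input for the lists of replicate 2 and of the pool than for replicate 1 and do not state its role. Depth is not known, so intervals and floors were not computed.

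Genes came from a RefSeq table of GRCm38.p6 (mm10), which has no strands. Strands were matched through RefSeq promoters for 16457 genes and GENCODE vM1 symbols or synonyms for 3529 and 368. Another 193 genes without a strand lay within 1 bin and were counted. Genes ending before 3 Mb (105) were left out by position, as such positions belong to scaffolds outside the assembled chromosomes. Another 13 genes without a bin were left out. No list has an autosomal peak before 3 Mb, which was not the reason for the choice. Chromosome lengths were the largest peak or gene end, so last bins may be partial. Family classes were symbol patterns. Bins and genes named were the 10 highest and 10 lowest, the 3 with most TSSs, the extremes of each class, the Hox, histone and protocadherin bins, and the up to 4 highest and 2 empty genes of each, in part. Members, lists and tests were chosen with earlier results of these data known. Unique 32-mers (20 per gene) were counted on the mm9 genome and matched by symbol for 17465 genes, and no coordinate was converted between builds. Alternatives were other lists, a −log10 q of at least 2, other TSS limits, shifted bins, other class shares, mm9 and leaving out each replicate. The coverage functions were tested on simulated data. Tools were pandas 2.3.3, numpy 2.4.6, matplotlib 3.10.9 and scipy 1.17.1 under Python 3.11.15.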

Additional observations from a re-analysis of the deposited data

How the results depend on the processing

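The main differences, the counts of high and low bins and the 20 highest and lowest bins were recomputed. The main differences kept their sign, while their size changed as given below. Counts and coverages of single bins cannot be negative, so their sign tests nothing. The highest bin, at a mean of 60.4% as reported, was at 64.8% with the replicated list and 66.9% with the pooled list. It was at 59.9% with a −log10 q of at least 2. The other class differences, comparisons of genes within bins, CpG shares and housekeeping values were not recomputed under the alternatives. The Hox genes differed from their neighbours by 7.18 points in replicate 1 and by -9.22 in replicate 2. The difference between gene-dense and other bins, 15.6 points as reported, was 17.1 with the replicated list, 18.0 with the pooled list, 12.5 with at least 10 TSSs, 17.3 with at least 20, 16.2 with bins shifted by 500 kb, 13.6 outside promoters, 23.3 with the mm9 lists, 16.2 without predicted genes and 15.3 without other bins that hold no peak. It was 15.5 to 15.8 with 1 replicate left out and 15.4 with a −log10 q of at least 2. Outside promoters, 13.6 as reported, it was in the same order 15.1, 16.3, 11.3, 14.8 and 14.6 up to the shifted bins, 21.0 with mm9, 14.4 without predicted genes, 13.3 without bins that hold no peak, 13.5 with the stricter q and 13.6 with 1 replicate left out. Receptor bins against bins of no family class, -19.01 as reported, were at -20.9 (replicated), -22.6 (pooled), -18.8 (stricter q), -15.3 and -21.9 (at least 10 and 20 TSSs), -20.7 (shifted bins), -17.3 (outside promoters), -29.9 (mm9), -19.5 (no predicted genes), -19.2 and -20.2 (class shares of 20% and 50%), and -19.1 to -18.9 with 1 replicate left out. In bins with at least 85% unique 32-mers, an alternative chosen after seeing the data, the value was -16.5 ± 0.34 (9 receptor bins). High bins numbered 578 with at least 10 TSSs and 219 with at least 20, against 358, as the number of gene-dense bins changed to 753 and 271. They were 76.8% and 80.8% of those gene-dense bins, where 40.3% of all bins were high. Low bins numbered 78 with at least 10 TSSs (10.4%, where 36.0% of all bins were low), against 41. The mm9 lists are broad intervals, and the cause of their larger values was not tested.

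Of the 10 highest and of the 10 lowest bins, 8 to 10 remained under each other list, the stricter q and each single replicate. No paired analysis was possible because the 2 replicates form 1 group. Peak coverage depends on depth, which is unknown here, and on how unique the sequence is.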

Other observations

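Some bins under the limit of 15 TSSs were as covered as the highest gene-dense bins. The bin chr11:117000001-118000000, with 14 TSSs, stood at 58.2% in replicate 1 and 56.7% in replicate 2, above 9 of the 10 highest gene-dense bins in replicate 1. Chr11:88000001-89000000, with 12 TSSs, was at 47.9% and 49.2%, and chr2:166000001-167000000, with 7, at 40.1% and 40.9%. Outside promoters these bins were at 57.5%, 48.1% and 39.8% in replicate 1.

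Of the 8 low gene-dense bins of no family class, 5 lie on chromosome 14. Of these, 4 hold mainly predicted genes and had coverage of at most 0.087% in each replicate, and chr14:41000001-42000000 was at 0.884% and 0.702%. The other 3 were chr1:173000001-174000000 (1.96% and 2.30%), chr6:41000001-42000000 (1.78% and 1.71%) and chr17:40000001-41000000 (1.21% and 1.19%).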
